A study of Populus tremula x Populus alba with 12 samples.

Results

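Leaves of poplars labelled Intermediate Phenotype were compared with leaves of both control genotypes in a study that edited a glycosyltransferase with CRISPR. The group was chosen by its genotype label and holds 3 of the 12 leaf RNA-seq libraries. It was set against the mean of 3 Empty-Vector and 3 Wild-type libraries (6 controls), and the values of 3 Knockout libraries are given beside them for most transcripts. All 12 came from the INRA 717 hybrid, a clone of *Populus tremula* x *Populus alba* grown under glass with 16 h of supplemental light, and mature mid-stem leaves were taken at an age of 3 months. The intermediate group is defined only by a phenotype, since its edit, its line and the trait that was scored were not stated in the labels. The Empty-Vector plants are the transformed control by their label, and the Wild-type plants the unmodified one. Whether the 3 libraries of a group came from separate lines or separate plants is not given either, and p-values cover only the spread among the libraries in hand.

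Poplar leaves store salicinoids, phenolic glucosides of salicyl alcohol that deter herbivores. In the pathway as published, the acyltransferases BEBT and SABT form benzyl benzoate and salicyl benzoate, and the glucosyltransferase UGT71L1 adds glucose to salicyl benzoate. UGT71L1 is known to have been edited by CRISPR in hybrid poplar, although the labels name no gene. Salicylic acid, a defence hormone, is made from the same aromatic precursors and is sensed by NPR1. The files do not pair identifiers with names, so each gene name below is a published assignment recalled for its identifier and not checked against an annotation. For the same reason the leaf identity of the libraries could not be checked against markers, and no sequence or position is given.

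Expression is given as CPM, counts scaled to a common library total after TMM normalisation. Total counts were 5.87, 5.98 and 10.3 M in intermediate libraries 1 to 3 and between 5.38 and 17.3 M over the 12 libraries. Of 16866 transcripts, 14279 passed the filter on low counts. Control libraries with the same label stood apart from each other. On the second principal component (16.9% of the variance) Empty-Vector libraries 1 and 3 lay at 50.1 and 47.6 and Empty-Vector library 2, the deepest of the 12, at −17.8. Wild-type library 3 lay at 11.9 on that axis, against −46.0 and −36.8 for Wild-type libraries 1 and 2. Counts of calls and the salicinoid and flavonoid differences are therefore also given without Empty-Vector library 2.

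UGT71L1 (Potri.016G014500.1) read 21.5, 35.7 and 28.2 CPM in the intermediate libraries, 9.58, 11.2 and 10.1 CPM in Knockout, 36.5, 77.2 and 33.5 CPM in Empty-Vector, and 53.8, 38.9 and 34.6 CPM in Wild-type. Intermediate libraries 1 and 3 lay below all 6 controls, library 2 lay among them, and all 3 lay above every Knockout library. It was 1.60-fold lower in intermediate than in controls (95% interval 1.06 to 2.41), which missed the threshold of 0.05 (edgeR quasi-likelihood test, Benjamini-Hochberg adjusted p = 0.692). By library, the log2 fold change was −1.09 ± 0.45 in library 1, −0.35 ± 0.42 in library 2 and −0.69 ± 0.43 in library 3 (SE). The group log2 fold change was −0.68 with all controls and −0.46 without Empty-Vector library 2 (edgeR adjusted p = 0.476). The counts come from whole leaf RNA, in which fewer cells of a type and less RNA per cell cannot be told apart.

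SABT (Potri.019G043600.1), which makes salicyl benzoate, read 88.2, 140.0 and 134 CPM in the intermediate libraries and 445, 555 and 624 CPM in Knockout. It read 49.6, 112 and 55.9 CPM in Empty-Vector and 71.1, 58.1 and 50.3 CPM in Wild-type. Intermediate libraries 2 and 3 lay above all 6 controls, and library 1 lay above 5 of them, the exception being Empty-Vector library 2. The intermediate mean was 1.83-fold that of controls (95% interval 1.26 to 2.66), with log2 fold changes of 0.42 ± 0.38, 1.09 ± 0.36 and 1.02 ± 0.36 in libraries 1 to 3 (SE). The group value did not pass over all transcripts (edgeR adjusted p = 0.41, unadjusted p = 0.0042). Its log2 fold change was 0.87 with all controls and 1.08 without Empty-Vector library 2 (edgeR adjusted p = 0.102), the highest of the 16 alternatives in scaling, filter, tool and libraries, of which 0.75 was the lowest.

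BEBT (Potri.013G074500.1), which makes benzyl benzoate, showed no separation of the groups. Its level was 496, 814 and 579.9 CPM in the intermediate libraries, 609, 819 and 781 CPM in Knockout, 354, 725 and 349 CPM in Empty-Vector, and 662, 426.5 and 290.1 CPM in Wild-type. Its fold difference between intermediate and controls was 1.35 (95% interval 0.87 to 2.09; edgeR adjusted p = 0.905), a log2 fold change of 0.43, or 0.62 without Empty-Vector library 2. No salicinoid gene was called by edgeR between intermediate and controls (0 of 3), where 0.00700% of all transcripts were. The share of all transcripts with an unadjusted p under 0.05 was 6.39%, and of the 3 genes SABT was higher and UGT71L1 lower by that measure. Neither DESeq2 nor limma-voom called any of them.

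**Figure D1:**
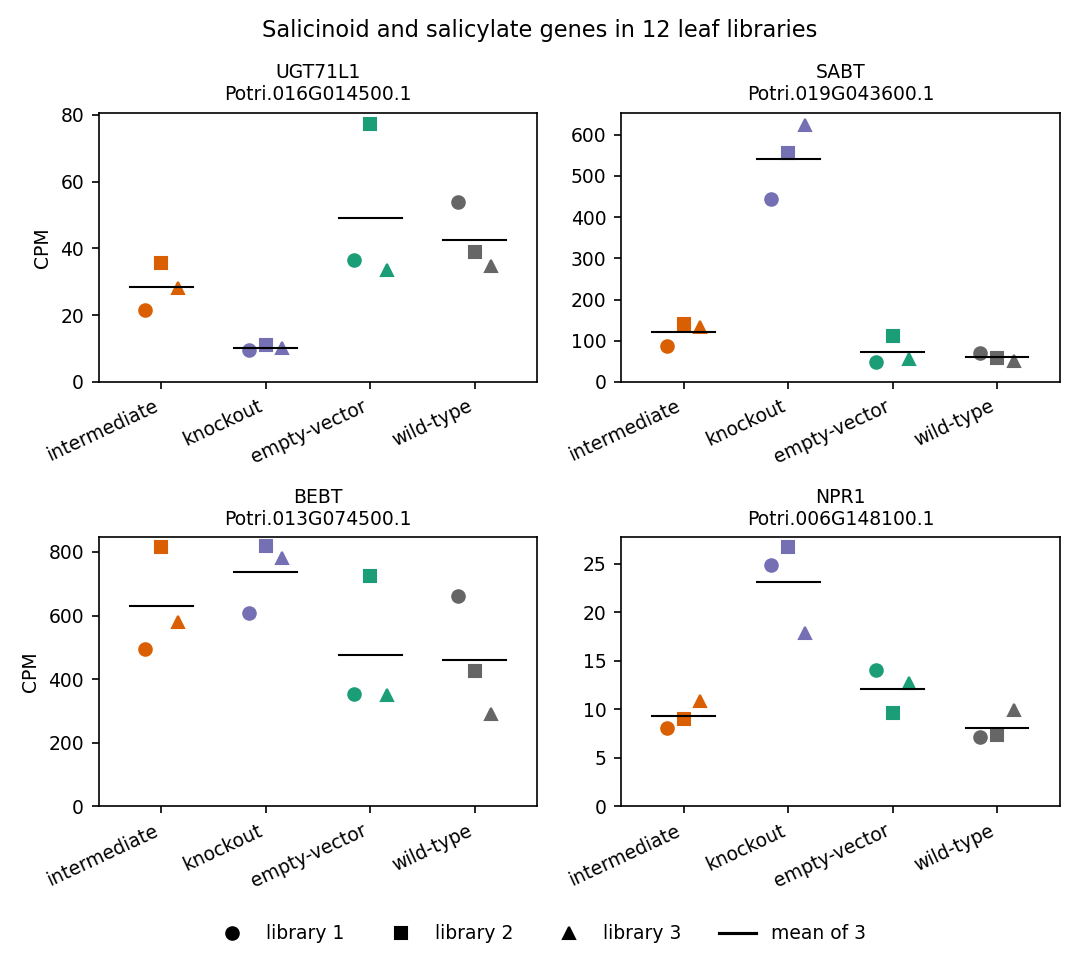
CPM of 3 salicinoid genes and NPR1 in each library of the intermediate, knockout, empty-vector and wild-type groups, with the mean of 3 as a bar. The intermediate points of UGT71L1 lie between 21.5 and 35.7 CPM and those of SABT between 88.2 and 140.0 CPM, in both cases between the knockout mean and the control means.

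The salicylic acid genes were read next. NPR1 (Potri.006G148100.1), the salicylic acid receptor, read 8.08, 9.01 and 10.9 CPM in the intermediate libraries and 24.8, 26.7 and 17.9 CPM in Knockout. It read 14, 9.67 and 12.7 CPM in Empty-Vector and 7.11, 7.31 and 9.96 CPM in Wild-type. The intermediate values lay within the range of the controls and below every Knockout library. The fold difference between intermediate and controls was 0.947 (95% interval 0.701 to 1.28; edgeR adjusted p = 0.999), an interval that leaves out a 2-fold change in either direction.

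ICS1 (Potri.012G071400.1), isochorismate synthase, on a route to salicylic acid known from Arabidopsis, was close to the depth limit. Levels were 1.10, 1.17 and 0.318 CPM in the intermediate libraries, 2.74, 2.24 and 3.07 CPM in Knockout, 0.372, 0.350 and 0.641 CPM in Empty-Vector, and 0.384, 0 and 0.613 CPM in Wild-type. A floor of 3 counts corresponds to 0.551, 0.501 and 0.318 CPM in intermediate libraries 1 to 3. Intermediate libraries 1 and 2 thus lay above all 6 controls, while library 3 lay at the floor. Wild-type libraries 1 and 2 lay below their floors of 0.576 and 0.535 CPM. ICS1 did not pass the filter on low counts when the Knockout libraries were left out. The fold difference from controls was 2.03 (95% interval 0.844 to 4.89; edgeR adjusted p = 0.855).

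The phenylpropanoid pathway supplies the precursors of lignin, flavonoids and other phenolics from phenylalanine. Of 22 listed pathway genes, 13 were in the files and all 13 were tested. None was called between intermediate and controls by edgeR, DESeq2 or limma-voom, with 0 at an unadjusted p under 0.05 in edgeR. The intermediate libraries took different sides of the control mean: 6 of the 13 genes were higher in library 1, 11 in library 2 and 2 in library 3, against 6888, 7356 and 6706 of the 14279 transcripts tested. The median log2 fold change of the 13 was −0.19 in library 1, 0.28 in library 2 and −0.34 in library 3, and over all transcripts −0.02, 0.01 and −0.02.

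PAL1 (Potri.006G126800.1) encodes phenylalanine ammonia-lyase, the first enzyme of the pathway. Its level was 1683, 2856 and 1900.4 CPM in the intermediate libraries, 1627, 2487 and 2118 CPM in Knockout, 2660.5, 2956 and 2207 CPM in Empty-Vector, and 2650.5, 1451 and 1576 CPM in Wild-type. Library 2 was the highest of the 3 intermediate libraries, and all 3 lay within the range of the controls. The fold difference was 0.966 (95% interval 0.67 to 1.39; edgeR adjusted p = 0.999).

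PAL3 (Potri.016G091100.1), a second ammonia-lyase, read 436.6, 1017 and 573 CPM in the intermediate libraries, 561, 796 and 915 CPM in Knockout, 1611, 957 and 1356 CPM in Empty-Vector, and 656, 437.0 and 535 CPM in Wild-type. Intermediate libraries 1 and 3 lay below every Empty-Vector library, library 3 within the Wild-type range and library 1 at its lower end. The log2 fold change was −0.95 ± 0.32 against Empty-Vector (edgeR adjusted p = 0.293) and 0.32 ± 0.31 against Wild-type (SE; edgeR adjusted p = 0.939). PAL4 (Potri.010G224100.1) and PAL5 (Potri.010G224200.1) are closely similar neighbouring genes by identifier, between which the counting could divide reads. Their intermediate means of 43.5 ± 13.2 and 40.2 ± 10.1 CPM (SD, n = 3) lay by control means of 43.5 ± 17.2 and 38.8 ± 14.1 CPM (SD, n = 6).

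4CL5 (Potri.003G188500.1), a 4-coumarate:CoA ligase, read 9.74, 26.2 and 12.4 CPM in the intermediate libraries and 8.55, 14.5 and 4.39 CPM in Knockout. It read 27.9, 8.51 and 21.7 CPM in Empty-Vector and 13.4, 14.8 and 28.7 CPM in Wild-type. Library 2 was again the highest of the intermediate group, and the SD was 8.84 CPM over the 3 intermediate libraries and 8.23 CPM over the 6 controls. By library the log2 fold change was −0.97 ± 0.74, 0.45 ± 0.63 and −0.63 ± 0.69 (SE).

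C4H2 (Potri.019G130700.1), cinnamate 4-hydroxylase, read 844, 1114 and 920.3 CPM in the intermediate libraries against a range of 845 to 1462 CPM in controls. Its fold difference was 0.909 (95% interval 0.676 to 1.22; edgeR adjusted p = 0.989). The remaining genes of the list, which act on the way to monolignols, were C4H1, CCoAOMT2, CCR2, F5H1, F5H2, CSE1 and CSE2, with log2 fold changes between −0.22 (CSE1) and 0.34 (C4H1). In each of them at least 1 intermediate library lay within the range of the controls.

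**Figure D2:**
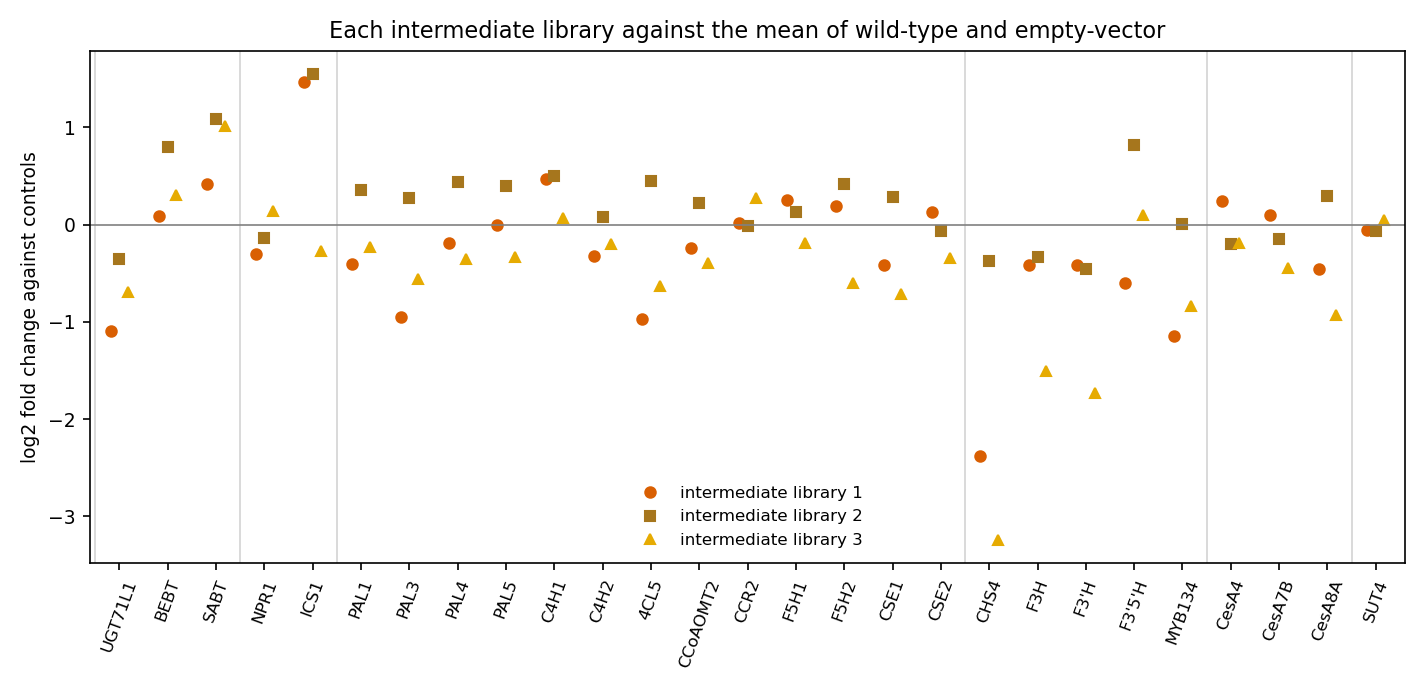
Log2 fold change of each listed gene in each intermediate library against the mean of wild-type and empty-vector, with 1 symbol per library and grey lines between lists. Library 2 lies above 0 in 11 of 13 phenylpropanoid genes and library 3 in 2 of them, and the flavonoid gene CHS4 spreads most, from −3.24 to −0.37.

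Of the flavonoid and condensed tannin genes tested, 4 of 5 were highest in Empty-Vector libraries 1 and 3, while Empty-Vector library 2 read close to Wild-type. Of 16 listed genes 7 were in the files and 5 were tested, and edgeR, DESeq2 and limma-voom called 0 of them between intermediate and controls, with 0 at an unadjusted p under 0.05 in edgeR. CHS4 (Potri.003G176700.1), chalcone synthase, the first enzyme of flavonoid synthesis, read 4.04, 16.4 and 2.23 CPM in the intermediate libraries, 8.55, 14 and 3.29 CPM in Knockout, 122.9, 5.36 and 39.1 CPM in Empty-Vector, and 5.57, 8.02 and 10.3 CPM in Wild-type. Empty-Vector libraries 1 and 3 lay above all other libraries, and the intermediate values overlapped those of Wild-type. The log2 fold change was −2.91 ± 0.96 against Empty-Vector (SE; edgeR adjusted p = 0.291) and −0.12 ± 0.98 against Wild-type (SE; edgeR adjusted p = 0.994). Against all controls it was −1.52, or −1.81 without Empty-Vector library 2 (edgeR adjusted p = 0.375). Without Empty-Vector library 1, where CHS4 read highest, it was −0.84.

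F3H (Potri.005G113900.1), flavanone 3-hydroxylase, had the same arrangement of the controls, at 125, 133 and 58.6 CPM in the intermediate libraries, 471, 96.9 and 240.4 CPM in Empty-Vector, and 104, 89.8 and 117 CPM in Wild-type. In Knockout F3H read 65.2, 84.1 and 53 CPM, below every control, and intermediate library 3 lay within that range. F3'H (Potri.013G073300.1), flavonoid 3'-hydroxylase, read 29.9, 29.0 and 12.1 CPM in the intermediate libraries, 30.8, 27.6 and 32.7 CPM in Knockout, 191, 14.6 and 62.1 CPM in Empty-Vector, and 16.5, 13.9 and 23.4 CPM in Wild-type. For both genes intermediate library 3 was the lowest of all 9 intermediate and control libraries. Without Empty-Vector library 2 their log2 fold changes against controls were −0.88 and −1.04, against −0.66 and −0.77 with all controls. Without Empty-Vector library 1, the highest control for both, they shrank to −0.33 and −0.16. MYB134 (Potri.006G221800.2), a regulator of tannin synthesis, read 4.04, 9.01 and 4.98 CPM in the intermediate libraries, 6.67, 10.1 and 6.91 CPM in Knockout, 26.0, 5.13 and 19.5 CPM in Empty-Vector, and 1.54, 4.46 and 8.12 CPM in Wild-type.

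F3'5'H (Potri.009G069100.1), flavonoid 3',5'-hydroxylase, stood apart from the other genes of its list. Levels were 23.5, 62.9 and 38.2 CPM in the intermediate libraries, 5.47, 13.2 and 11.3 CPM in Knockout, 18.6, 33.6 and 37.9 CPM in Empty-Vector, and 36.1, 56.0 and 35.1 CPM in Wild-type. The intermediate values overlapped both control groups and lay above every Knockout library. Its fold difference from controls was 1.16 (95% interval 0.708 to 1.92; edgeR adjusted p = 0.991).

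Secondary-wall cellulose synthases, which mark xylem in the leaf veins, were read as a sign of the tissue sampled. Of 5 listed, 3 were tested and none was called by edgeR, DESeq2 or limma-voom, with 0 at an unadjusted p under 0.05 in edgeR. CesA4 (Potri.002G257900.1) read 671, 493 and 499 CPM in the intermediate libraries, 1053, 1134 and 268 CPM in Knockout, 899, 479.7 and 663 CPM in Empty-Vector, and 418, 349 and 650.0 CPM in Wild-type. The summed level of the 3 ranged from 676 to 930.4 CPM in intermediate, from 357 to 1527 CPM in Knockout, from 658 to 1291 CPM in Empty-Vector and from 497 to 933 CPM in Wild-type. The intermediate range lay inside that of the controls, and intermediate library 1 had the highest sum of its group. The part of vein content in the differences among the intermediate libraries was not tested. SUT4 (Potri.002G106900.1), a sucrose transporter of the vacuolar membrane, read 142, 139.7 and 151 CPM in the intermediate libraries against 115 to 188 CPM in controls, a fold of 0.985 (95% interval 0.797 to 1.22).

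Over all transcripts few differences between intermediate and controls passed. By edgeR 1 transcript passed, higher in the intermediate group, and 0 passed as lower (0.00700% of those tested). The unadjusted p was under 0.05 in 913 (6.39%), of which 650 were higher and 263 lower. Limma-voom called 1, and DESeq2 called 63 (0.441%), 55 of them higher and 8 lower. All 3 intermediate libraries lay above all 6 controls in 264 transcripts (1.85%), of which 35 differed by over 2-fold, and below all 6 in 126 (0.882%), of which 11 did. The median log2 fold change of those transcripts was 0.56 and −0.52, in directions that the choice by separation fixed. Among so many transcripts some would separate in this way without a group difference, and their number was not estimated. The edgeR count was 3 without Empty-Vector library 2 and 0 without any 1 of the other 8 intermediate and control libraries or without the Knockout libraries.

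That transcript is Potri.008G135800.1. Its level was 7.90, 12.0 and 8.48 CPM in the intermediate libraries, 4.96, 6.15 and 5.49 CPM in Knockout, 3.54, 3.15 and 3.63 CPM in Empty-Vector, and 3.26, 3.03 and 2.30 CPM in Wild-type. The intermediate libraries were the highest of all 12 and overlapped no other group. Lying above all 6 controls was required by the choice of named transcripts, and lying above Knockout was not. The Knockout libraries lay between the intermediate libraries and the controls. It was 3.02-fold higher in intermediate than in controls (95% interval 2.27 to 4.02; edgeR adjusted p = 0.0296). By library the log2 fold change was 1.33 ± 0.27, 1.94 ± 0.25 and 1.44 ± 0.25 (SE). It was called in 7 of 16 alternatives, with a log2 fold change between 1.39 and 1.70 and adjusted p-values between 4.62e-07 and 0.212.

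Potri.004G106600.1 came second among the higher transcripts, at 228, 223 and 197 CPM in the intermediate libraries, 205, 250.2 and 217 CPM in Knockout, 82.7, 67.9 and 101 CPM in Empty-Vector, and 156, 158 and 140.4 CPM in Wild-type. The intermediate libraries lay above all 6 controls, which the choice of named transcripts required, and overlapped Knockout, while Empty-Vector lay below Wild-type. The fold was 1.92 against controls (95% interval 1.57 to 2.34; edgeR adjusted p = 0.0859), 2.58 against Empty-Vector (95% interval 2.02 to 3.28, adjusted p of 0.0231 by edgeR) and 1.42 against Wild-type (95% interval 1.12 to 1.81; edgeR adjusted p = 0.928). DESeq2 called the difference from controls (adjusted p = 3.16e-07), and over the 16 alternatives the adjusted p ran from there to 0.266.

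Lower transcripts were taken by p-value among those of at least 5 CPM on the higher side and no overlap between intermediate and controls. The first 2 were loci close together by identifier. Potri.019G045400.1 read 2.20, 1.67 and 2.33 CPM in the intermediate libraries, 0.855, 0.373 and 0.439 CPM in Knockout, 6.70, 4.72 and 5.77 CPM in Empty-Vector, and 4.42, 4.46 and 5.06 CPM in Wild-type. Potri.019G045100.1 read 4.22, 4.67 and 4.03 CPM in the intermediate libraries, 2.05, 1.31 and 1.54 CPM in Knockout, 7.07, 7.05 and 9.82 CPM in Empty-Vector, and 12.3, 10.9 and 7.36 CPM in Wild-type. In both, every intermediate library lay below every control, which the choice required, and above every Knockout library, which it did not. Their values were 2.46-fold lower (95% interval 1.70 to 3.55) and 2.09-fold lower (95% interval 1.49 to 2.92), with edgeR adjusted p of 0.223 and 0.235, so neither was called by edgeR. DESeq2 called both (adjusted p of 0.0201 and 0.0285), the 1 call of each among 16 alternatives.

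**Figure D3:**
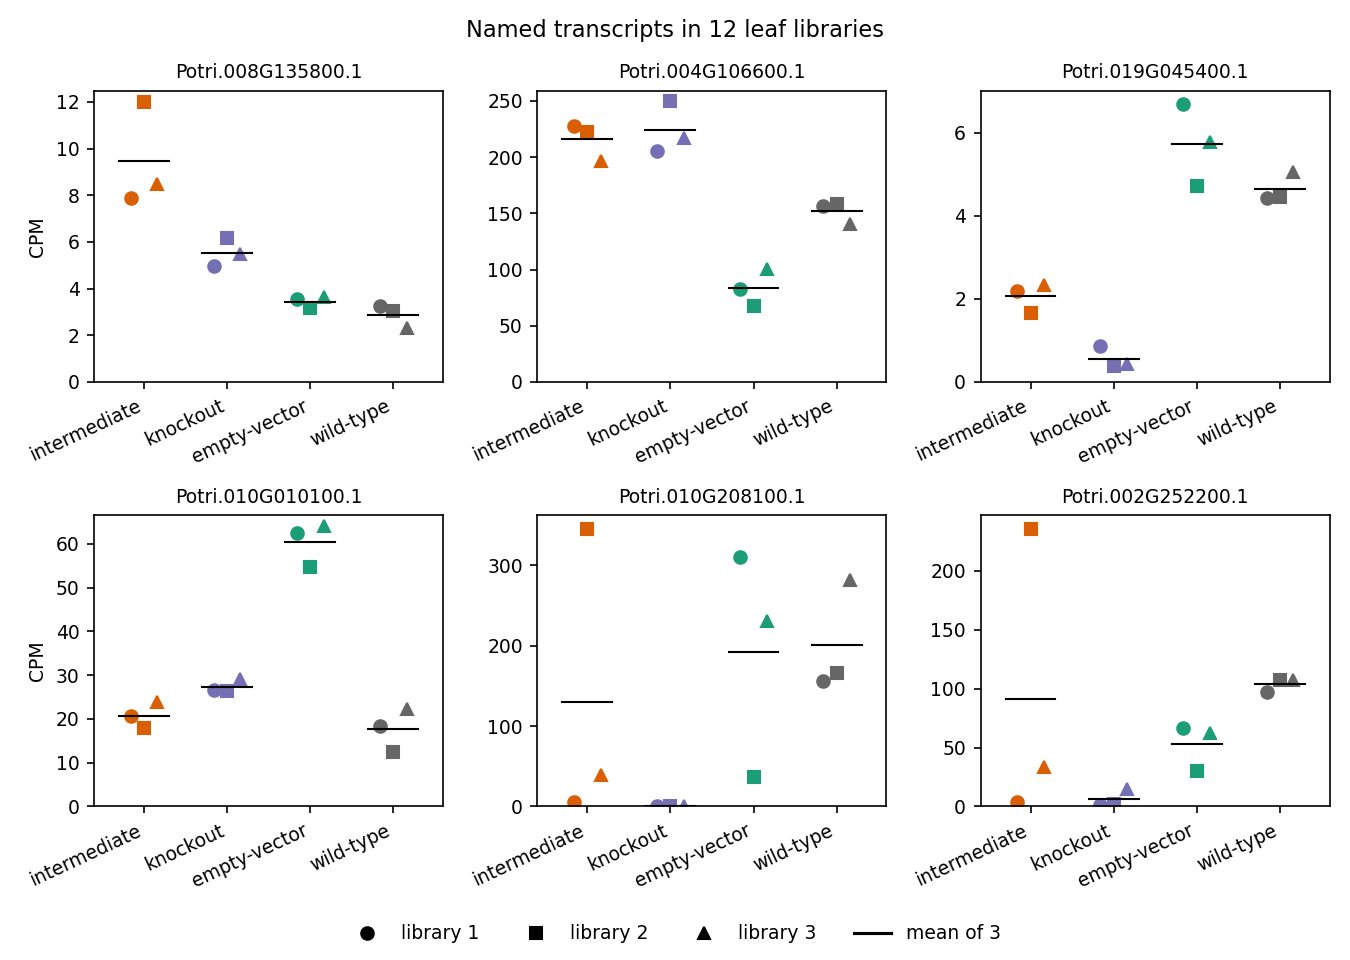
CPM of 6 transcripts in each library of the intermediate, knockout, empty-vector and wild-type groups, with the mean of 3 as a bar. Potri.008G135800.1 is highest in the intermediate group, Potri.010G010100.1 is highest in the empty-vector libraries, and Potri.010G208100.1 and Potri.002G252200.1 differ among the 3 intermediate libraries.

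The 2 control genotypes gave different counts. Against Empty-Vector 18 transcripts (0.126%) passed by edgeR, of which 12 (0.0840%) were higher in intermediate and 6 (0.0420%) lower. The unadjusted p was under 0.05 in 1677 (11.7%), while limma-voom called 14 and DESeq2 239 (1.67%). Against Wild-type 0 passed by edgeR, the unadjusted p was under 0.05 in 688 (4.82%), limma-voom called 0 and DESeq2 13 (0.0910%), 12 of them higher and 1 lower. Of the 12 higher against Empty-Vector, the Empty-Vector libraries lay beyond all intermediate and Wild-type libraries in 11, and the intermediate libraries lay beyond all 6 controls in 6. In all 6 lower ones Empty-Vector lay beyond the rest and intermediate overlapped Wild-type. These transcripts were chosen by a difference from Empty-Vector, so that its separation from intermediate was in large part fixed by the choice. The share of all transcripts in which Empty-Vector lay beyond both groups was not counted, and no result about Empty-Vector is drawn from these counts. The count against Empty-Vector was 387 without Empty-Vector library 2, 0 without Empty-Vector library 1 and 1 without Empty-Vector library 3. It was 1, 12 and 3 without intermediate library 1, 2 and 3, 5 and 6 without Wild-type library 1 and 2, and 9 without the Knockout libraries. The fit with 387 calls kept Empty-Vector libraries 1 and 3, the most alike pair within any group (SD of the log2 difference 0.289).

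Of the transcripts called against Empty-Vector, 3 were chosen as examples after their values were seen. Potri.004G182000.1 read 19.5, 24.9 and 48.8 CPM in the intermediate libraries, 616, 514 and 629 CPM in Knockout, 5.49, 5.01 and 5.23 CPM in Empty-Vector, and 25.7, 12.7 and 19.6 CPM in Wild-type. Intermediate library 3 was the highest of the 9 intermediate and control libraries, and libraries 1 and 2 lay within the Wild-type range. The fold was 5.96 against Empty-Vector (95% interval 3.61 to 9.85, adjusted p of 0.0231 by edgeR) and 1.62 against Wild-type (95% interval 1.01 to 2.60, adjusted p of 0.928 by edgeR). Library 3 alone was 4.84-fold higher than the 6 controls (95% interval 3.28 to 7.15; edgeR adjusted p = 0.0503).

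Potri.010G010100.1 read 20.6, 17.9 and 23.8 CPM in the intermediate libraries, 26.5, 26.3 and 29.2 CPM in Knockout, 62.4, 54.8 and 64.0 CPM in Empty-Vector, and 18.4, 12.5 and 22.2 CPM in Wild-type. All 3 Empty-Vector libraries lay above the 9 others, and intermediate overlapped Wild-type. The intermediate level was lower than that of Empty-Vector by a factor of 2.90 (95% interval 2.17 to 3.89, adjusted p of 0.0231 by edgeR). Potri.002G223900.1 had 0 counts in every intermediate, Knockout and Wild-type library and read 5.12, 6.58 and 6.83 CPM in Empty-Vector. Against a floor of 3 counts over the intermediate group it was at least 43.0-fold lower than in Empty-Vector. This transcript passed the filter through the Empty-Vector libraries only. Its difference sets Empty-Vector apart from the other groups and is not particular to the intermediate group.

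Taken one at a time, the 3 intermediate libraries lay at different distances from the controls. Over the 10003 transcripts of at least 5 CPM on average, the SD of the log2 difference from the control mean was 0.539 in library 1, 0.331 in library 2 and 0.397 in library 3. It was between 0.927 and 1.12 in the Knockout libraries, and between 0.332 and 0.503 in controls set against the other controls. Library 1 thus lay outside the range of the controls, library 3 inside it and library 2 at its lower end. In library 1 there were 218 transcripts over 2-fold higher and 308 over 2-fold lower, in library 2 there were 71 and 50, and in library 3 there were 185 and 109. Controls set against the other controls had 67 to 322 higher and 64 to 345 lower, so that by this count libraries 1 and 3 lay within the range of the controls.

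On the first principal component (53.4% of the variance), the intermediate libraries lay at −1.84, 37.2 and 9.29, the Knockout libraries between −97.9 and −70.5, and the controls between 24.7 and 42.7. Library 2 lay among the controls, and libraries 1 and 3 lay between the controls and Knockout. Across the 14279 transcripts of log2 CPM, the correlation with Knockout libraries was 0.912 to 0.923 for library 1, 0.867 to 0.900 for library 2 and 0.905 to 0.931 for library 3. With the controls it was 0.932 to 0.969, 0.960 to 0.980 and 0.950 to 0.978. Empty-Vector library 2 was the control nearest to Knockout on the first component.

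**Figure D4:**
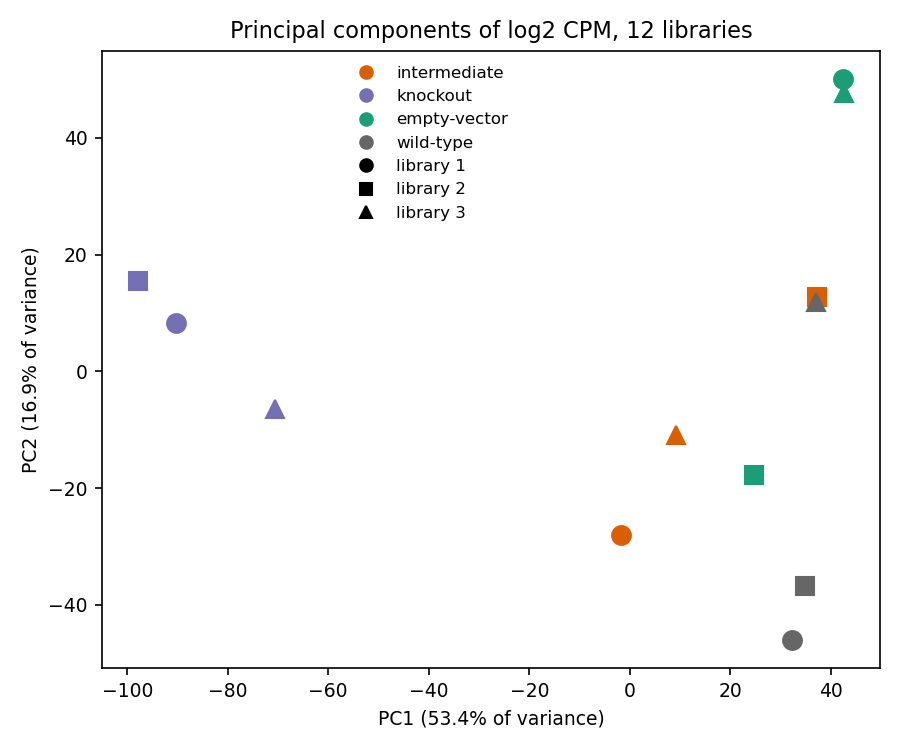
First and second principal components of log2 CPM over 14279 transcripts, with colours for the 4 groups and symbols for the library number. Intermediate library 2 lies at 37.2 on the first component among the controls, and intermediate libraries 1 and 3 lie at −1.84 and 9.29, on the side towards the knockout libraries.

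Tested singly against the controls, each intermediate library had 0 calls by edgeR (0%). The unadjusted p was under 0.05 in 1167 transcripts (8.17%) for library 1, 440 (3.08%) for library 2 and 669 (4.69%) for library 3. DESeq2 called 80 (0.560%; 34 higher and 46 lower), 3 (0.0210%) and 4 (0.0280%), and limma-voom called 0, 1 and 0. In this fit a lone library is assumed to vary like those of the other groups. Without Empty-Vector library 2 the edgeR counts were 22 in library 1, 0 in library 2 and 4 in library 3, and library 3 had 1 without Wild-type library 1 or 2.

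Libraries 1 and 2 were the least alike of the intermediate pairs, with an SD of the log2 difference of 0.667 and 918 transcripts (9.18%) over 2-fold apart. Libraries 1 and 3 had an SD of 0.479 and libraries 2 and 3 one of 0.475. Spread of this size was present in other groups: the pairs gave 0.412 to 0.665 in Knockout, 0.289 to 0.678 in Empty-Vector and 0.324 to 0.577 in Wild-type. A test for any difference among the 3 intermediate libraries, with the spread taken from the other groups, called 0 transcripts by edgeR, with 596 (4.17%) at an unadjusted p under 0.05. The same edgeR test also called 0 within Knockout, Empty-Vector and Wild-type, with 980, 1017 and 317 at an unadjusted p under 0.05.

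Examples of transcripts that spread widely among the intermediate libraries were chosen after their values were seen. Potri.010G208100.1 read 4.96, 345.0 and 38.8 CPM in intermediate libraries 1 to 3, 0.684, 0.746 and 0.439 CPM in Knockout, 309.7, 36.6 and 230.3 CPM in Empty-Vector, and 156, 166 and 281 CPM in Wild-type. Library 1 lay below every control, library 2 above every control, and library 3 close to Empty-Vector library 2. Library 1 was 39.5-fold lower than controls (95% interval 6.58 to 237), which did not pass over all transcripts (edgeR adjusted p = 0.431).

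Potri.002G252200.1 had the same order, at 4.22, 235.5 and 33.7 CPM in the intermediate libraries, 1.03, 1.86 and 15.2 CPM in Knockout, 66.4, 30.4 and 62.2 CPM in Empty-Vector, and 97.0, 107.5 and 107 CPM in Wild-type. Potri.013G101000.1 ran the other way, at 6.25, 0.167 and 2.23 CPM in the intermediate libraries, 21.4, 114 and 3.07 CPM in Knockout, 0.465, 0.350 and 0 CPM in Empty-Vector, and 0.192, 0.178 and 0.460 CPM in Wild-type. These 3 were picked for the distance between libraries 1 and 2 and do not stand for other transcripts. None was called between intermediate and controls by edgeR (adjusted p of 0.991, 0.999 and 0.72). Potri.013G101000.1 did not pass the filter on low counts when the Knockout libraries were left out.

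In another 3 transcripts chosen after their values were seen, with consecutive identifiers, all 3 intermediate libraries lay above all 6 controls and below Knockout. As the choice was made with these values known, this order of the groups may have been fixed by it. The intervals and calls given for them share that limit. Potri.015G024000.1 read 10.8, 7.18 and 7.85 CPM in the intermediate libraries, 35.1, 26.1 and 99.1 CPM in Knockout, 3.26, 1.86 and 1.07 CPM in Empty-Vector, and 4.03, 3.21 and 1.69 CPM in Wild-type. It was 3.47-fold higher in intermediate than in controls (95% interval 1.76 to 6.84; edgeR adjusted p = 0.328). DESeq2 called it (adjusted p = 0.0293), its 1 call among 16 alternatives. Potri.015G023900.1 read 5.51, 3.67 and 5.83 CPM and Potri.015G024100.1 11.4, 4.17 and 8.16 CPM in the intermediate libraries, against highest control values of 3.03 and 3.54 CPM. In Knockout they read 26.7, 21.6 and 89 CPM and 26.3, 17 and 72.6 CPM. Neither was called by edgeR (adjusted p of 0.641 and 0.402) or by DESeq2 (adjusted p of 0.355 and 0.068). Library 2 was the lowest intermediate library in each of the 3.

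To place the intermediate libraries against the Knockout difference without a shared control, transcripts were taken from Knockout against Empty-Vector and read in the intermediate libraries against Wild-type. On the 1521 transcripts higher in Knockout than in Empty-Vector, the median log2 difference from Wild-type was 0.30, 0.13 and 0.35 in intermediate libraries 1 to 3. It was 1.50, 1.52 and 1.30 in Knockout, and 0, −0.03 and 0.07 in Wild-type libraries set against the other Wild-type libraries. Over all transcripts the medians were 0.02, 0.06 and 0.02 in the intermediate libraries and −0.01, −0.01 and 0.05 in Wild-type. The medians of intermediate libraries 1 and 3 lay above those of Wild-type and below those of Knockout, while that of library 2 was close to Wild-type library 3. The Knockout libraries were also used to choose each set, so a median short of theirs was in part fixed by that choice. Any transcripts that passed the filter on low counts through the Knockout libraries alone were not left out, and their number was not counted.

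On the 1255 transcripts lower in Knockout than in Empty-Vector, the median was −0.39, 0.23 and −0.17 in intermediate libraries 1 to 3, −1.32, −1.34 and −1.14 in Knockout, and −0.16, −0.08 and 0.26 in Wild-type. Library 1 lay below the Wild-type range and library 3 at its edge, while library 2 lay on the opposite side to Knockout and inside the range. With the control genotypes exchanged, the intermediate medians of the higher set lay close to those of the Empty-Vector libraries. On 2095 transcripts higher in Knockout than in Wild-type, the median against Empty-Vector was 0.06, 0.02 and 0.12 in the intermediate libraries and 0.08, −0.19 and 0.11 in Empty-Vector. On 1796 lower ones it was −0.21, 0.17 and −0.06 in the intermediate libraries and 0.02, −0.07 and 0.04 in Empty-Vector, so that library 1 lay below and library 2 above the Empty-Vector range. Over all transcripts the medians against Empty-Vector were −0.04, 0.03 and −0.02 in the intermediate libraries and 0.04, −0.09 and 0.05 in Empty-Vector. The medians over all transcripts were not subtracted from those of the sets. These sets were built after the data were seen, and the medians carry no test.

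**Figure D5:**
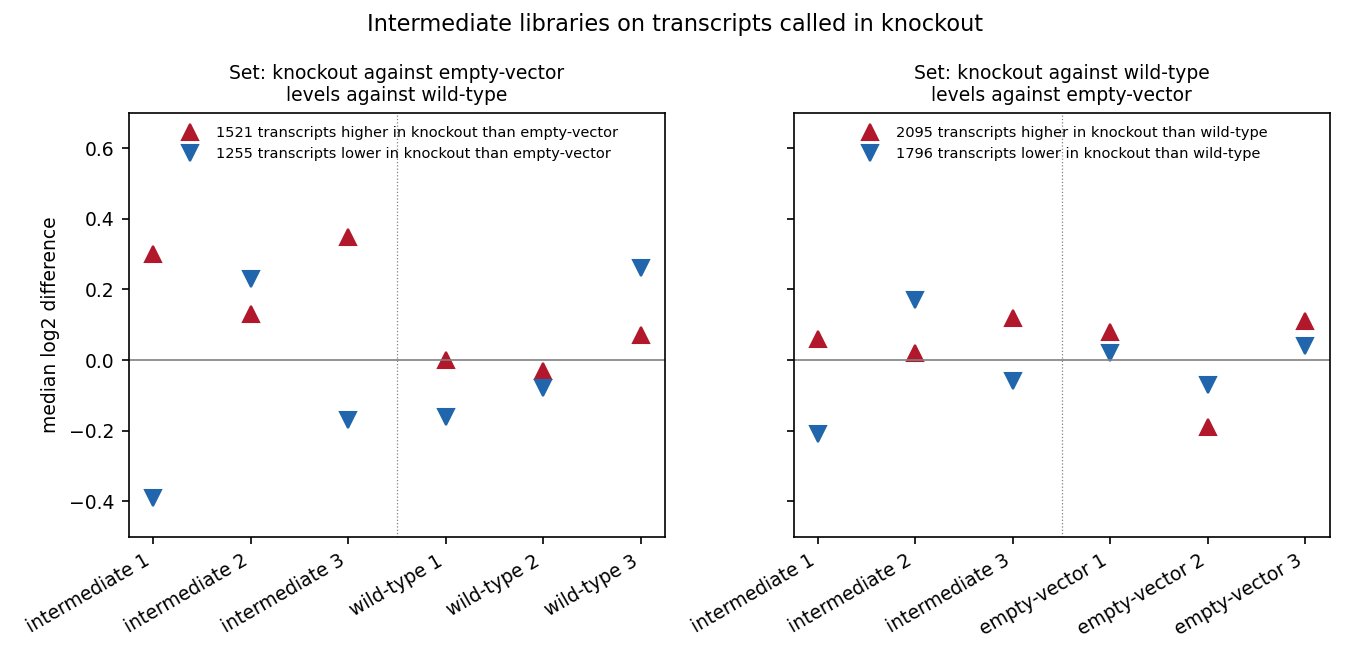
Median log2 difference of each library over transcripts called between knockout and 1 control genotype, read against the other control genotype, with triangles up for the higher set and triangles down for the lower set. Against wild-type the higher set lies at 0.30, 0.13 and 0.35 in the intermediate libraries, and against empty-vector at 0.06, 0.02 and 0.12 beside 0.08, −0.19 and 0.11 in the empty-vector libraries.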

How the data were processed

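Leaf mRNA was sequenced in 12 libraries of 4 genotype groups. The values used are counts deposited by the authors, 1 whole number per transcript identifier and library. Among tools, HTSeq, HISAT2, Cufflinks, SAMtools and DESeq2 are listed in the submitters' processing notes, with neither versions nor roles. The genome build and the strand setting were not given in the sources used here, so reads of antisense or near-identical genes may be shared.

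Tests used edgeR 4.0.16 (R 4.3.3). filterByExpr on the 4 groups (minimum count 10, total 15, proportion 0.7) kept 14279 of 16866 rows and 99.8% of counts. Libraries were scaled by TMM. Group means were fitted to all 12 libraries (8 residual degrees of freedom), and single intermediate libraries with a coefficient each (6 residual degrees of freedom). Two-sided quasi-likelihood tests were adjusted by Benjamini-Hochberg over all 14279 rows at 0.05; 95% intervals use the SE from the F statistic. The biological coefficient of variation was 24.6%. The code was tested on simulated data. DESeq2 1.42.0 and limma-voom (limma 3.58.1), 2 other scalings, 2 other filters, a fit without Knockout and fits leaving out each library were alternatives. For principal components, log2 CPM had a prior count of 2. Chi-square per degree of freedom between libraries of a group was 8.56 or more, so none was counted as a duplicate.

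The members and lists were chosen with earlier results of these data known. Named transcripts are the 2 higher and 2 lower with the smallest edgeR p among rows of at least 5 CPM on the higher side and no overlap between intermediate and control libraries, all listed genes the files hold after filtering, and examples said to be chosen after their values were seen. The 3 listed circadian clock genes were not analysed here, and lists defined by description terms were not used without an annotation. Floors on counts cover counting error only. Intervals on folds, like the p-values, cover only the spread among the libraries in hand.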

Additional observations from a re-analysis of the deposited data

Results flagged for a closer look

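In 4 of the 40 transcripts checked, 1 of the 6 control libraries lay far from the other 5 by Dixon's gap test, where about 1 group in every 20 is marked by chance. SABT read 112.4 CPM in Empty-Vector library 2, with the next control at 71.1 CPM. C4H1 (Potri.013G157900.2), a low-count cinnamate 4-hydroxylase, read 3.35 CPM in Empty-Vector library 1, with the next at 1.96 CPM. CHS4 read 122.9 CPM in Empty-Vector library 1, with the next at 39.1 CPM. F3'H read 191.2 CPM in Empty-Vector library 1, with the next at 62.1 CPM. In all 4 the deviating library was an Empty-Vector library and the value was the highest of the 6 controls, so the intermediate group was set against a control mean that this library raised.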

How the results depend on the processing

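The numbers of called transcripts moved with the tool and the libraries. DESeq2 gave 63 calls between intermediate and controls, 13 against Wild-type, 239 against Empty-Vector, and 80, 3 and 4 for intermediate libraries 1, 2 and 3. Limma-voom gave 1 for library 2, where edgeR gave 0. With no filter beyond 1 count, edgeR gave 2 calls between intermediate and controls and 1 for library 3. Without the Knockout libraries it gave 0 between intermediate and controls and 9 against Empty-Vector. Leaving out 1 library at a time gave 0 to 3 calls between intermediate and controls, 0 to 387 against Empty-Vector, 0 to 0 against Wild-type (fits without a library of the control genotype outside the comparison were added after seeing the data), and 0 to 22, 0 to 0 and 0 to 4 for intermediate libraries 1, 2 and 3. The cause of these changes was not tested. Of 40 transcripts checked, 25 kept the sign of their log2 fold change between intermediate and controls in every alternative run, and none of the other 15 was called in any. With 3 libraries a group and totals from 5.38 M counts, small changes and transcripts near the floor of 3 counts could be missed. No paired analysis was possible because the labels give the libraries no shared replicate numbers.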
